A study of Mus musculus with 8 samples.

Results

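The type I interferon response genes are a set of 37 genes, chosen by name, that cells switch on after interferon alpha or beta binds its receptor. All 37 were found by symbol among the 53465 genes of the deposited table, and all 37 were among the 16380 genes whose mean reached 3 and that entered the test. RNA was sequenced from the colon of 8 mice on the B6 background, kept pathogen-free and aged 7 to 12 weeks, all taken on day 10 after colitis was induced with 2.5% dextran sulfate sodium (DSS) in the drinking water for a week. Of these, 4 were labelled Arg1 ko, carrying a conditional, cell-specific deletion of arginase 1, and 4 were littermates labelled Arg1 wt, called wild type below. The labels name neither the Cre driver nor the cells in which Arg1 was deleted, and there was no untreated group, so every value below is from an inflamed colon.

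Interferons signal through the receptor chains Ifnar1 and Ifnar2, the kinases Jak1 and Tyk2, and a complex that holds Stat2 and Irf9, which enters the nucleus and binds the interferon-stimulated response element in the promoters of target genes. The products sense viral RNA and DNA, degrade or sequester it, tag proteins with the ubiquitin-like Isg15, and raise the level of the sensors and transcription factors themselves. In the intestine, epithelial cells also answer type III interferons, which use another receptor and switch on much the same genes, and interferon gamma shares part of the set, so the genes alone do not tell which interferon acted.

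The response element is shown for members described below, because it is the sequence through which these genes are known to be switched on together. Promoter windows of 300 bases, from 250 before to 50 after the start of transcription, were taken from RefSeq (GRCm38.p6). They were found for 28 of the 37 genes, the others being Dhx58, Zbp1, Usp18, Oas2, Mx1, Mx2, Parp9, Parp14 and Rtp4. The core, GAAA followed after 2 bases of any kind by GAAA, was searched on each strand with overlapping matches allowed. It is in capitals in the stretches below, where it reads TTTC, 2 bases, TTTC if it lies on the other strand. Each stretch runs along the gene's own strand, with 20 bases on either side of the matches, and the distance given is from the start of transcription to the first base of the match.
Stat2 (chr10:128270256-128270305, plus strand, match 222 bases before the start): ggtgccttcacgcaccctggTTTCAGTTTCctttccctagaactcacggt
Ifit1 (chr19:34640765-34640833, plus strand, matches 104 and 85 bases before the start): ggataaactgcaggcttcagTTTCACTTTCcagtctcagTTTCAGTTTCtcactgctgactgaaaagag
Ifit3 (chr19:34583353-34583436, plus strand, matches 156 and 122 bases before the start): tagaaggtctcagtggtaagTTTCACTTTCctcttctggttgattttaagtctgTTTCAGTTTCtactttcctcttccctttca
Ifit3b (chr19:34607749-34607832, plus strand, matches 188 and 154 bases before the start): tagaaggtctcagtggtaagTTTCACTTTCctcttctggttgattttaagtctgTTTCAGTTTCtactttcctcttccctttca
Isg15 (chr4:156200855-156200916, minus strand, 3 overlapping matches from 78 to 66 bases before the start): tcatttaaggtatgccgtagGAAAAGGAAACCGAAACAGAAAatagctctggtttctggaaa
Bst2 (chr8:71537567-71537622, minus strand, overlapping matches 130 and 124 bases before the start): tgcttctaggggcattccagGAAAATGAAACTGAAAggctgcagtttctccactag

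The core was found in a window of 13 of the 28 genes, 46.4% of them, against 3.44% of all 32851 promoter windows of this length and 3.99% of all 27025 genes. Besides the 6 shown these were Ifih1, Ddx58, Eif2ak2, Oas1a, Oas3, Trim30a and Rsad2. Ifit3 and Ifit3b, neighbouring copies on chromosome 19, had the same letters in the stretch shown, and 258 of 260 aligned bases of their windows were identical. Their longest transcripts were 98% identical over 1697 aligned bases, so reads cannot be split safely between them and their values are best read together. No match means only that these letters are not in this window.

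The values are regularised log2 values (rlog), in which counts, adjusted for library size, are moved to logarithms and the noisier ones shrunk to the average of the gene. Depth cannot be read from them. Arg1 had 5.59, 5.57, 5.02 and 5.58 in wild type 1 to 4 and 5.06, 4.87, 5.15 and 5.19 in Arg1 ko 1 to 4. The wild-type value of 5.02 lay inside the ko range, and its source is therefore written as the library labelled wild type 3. The difference, Arg1 ko minus wild type, was -0.37 (limma unadjusted p = 0.0355, adjusted p = 0.522, and exact two-sided permutation p = 0.114, smallest possible 0.0286). The longest Arg1 transcript has 1477 bases, and after the correction for transcript length described below the difference was -0.25. Over all tested genes under 2 kb, the median deviation from the gene's own mean was 0.31, 0.17, -0.15 and -0.07 in wild type 1 to 4. The labels give the tissue as colon, but the extraction text speaks of aggregates of epithelium freed by 30 mM EDTA. Epithelial markers had the highest summed level of the cell type lists, but markers of smooth muscle, fibroblasts, macrophages, T cells and red blood cells were measured in every library and no marker was listed at 0 in all of them. In tissue RNA, fewer cells of a type and less RNA per cell cannot be told apart.

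Every member was expressed in every library. Divided by the length of the longest transcript, the level was highest for the transcription factor Irf7 (mean rlog minus log2 of the length in kb, 11.46), followed by Isg15 (11.02), the membrane tether Bst2 (10.60), Oasl2 (10.39) and Oas1a (10.18). It was lowest for Mx1 (5.19) and Mx2 (5.48), dynamin-like GTPases that trap viral nucleocapsids. Each step in the order among the 5 highest was smaller than the standard deviation of those genes within the wild type, 0.51 to 1.19. Within Arg1 ko that standard deviation was 0.23 to 0.31, and not every step was below it. Whether neighbours in this order differed was not tested. B6 mice are known to carry a defective Mx1 gene.

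Between genotypes, 33 of the 37 members had a higher mean in Arg1 ko and 4 a lower one, with a median difference of 0.29, against 51.2% higher and a median of 0.01 over all tested genes. None passed the test over all genes (limma, 0 of 37 with an adjusted p under 0.05, where 0% of all tested genes passed; smallest adjusted p among the members 0.522). At an unadjusted p under 0.05, 7 members had the higher mean in Arg1 ko and 0 the lower, against 4.73% and 4.37% of all tested genes. In no member did all 4 ko values lie above all 4 wild-type values, which 2.36% of all tested genes did, and in none did they lie below (1.67%). In either direction 9.1% of all tested genes had an unadjusted p under 0.05 (limma). By the exact two-sided permutation test, those 7 members had p from 0.0571 to 0.114, where the smallest possible is 0.0286. The list was proposed with results of these data known, so its direction is not independent evidence. The count of calls depends on 1 library. When the library labelled wild type 3 was left out, 5 members passed (Rnf213, Helz2, Samd9l, Parp14 and Dtx3l, all higher), where 2.85% of all tested genes were called higher and 3.28% lower. In each of these 5 the omitted value was the highest of the wild type, so leaving it out enlarges the difference by construction. All 5 have a longest transcript of 4 kb or more, whereas these shares are over genes of all lengths.

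**Figure D1:**
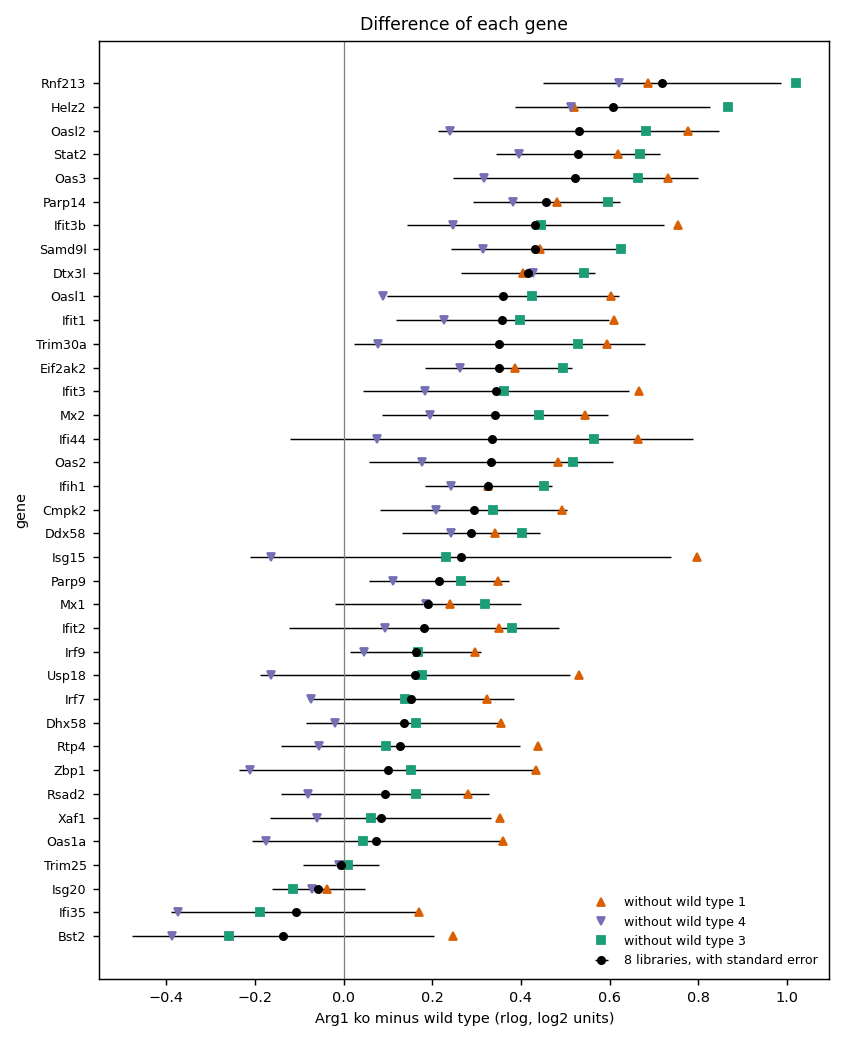
Arg1 ko minus wild type for each of the 37 genes in rlog (log2) units; black points are the fit of 8 libraries with its standard error, and coloured symbols are the fits without wild type 1, without wild type 4 and without the library labelled wild type 3. The black points run from -0.14 for Bst2 to 0.72 for Rnf213, and most fits without wild type 4 lie to their left and most without wild type 1 to their right.

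The factors that carry the signal come first. Stat2 (ENSMUSG00000040033, chromosome 10, 128270559 to 128292849), a subunit of the interferon-activated complex, had 10.54, 9.99, 10.69 and 9.87 in wild type 1 to 4 and 10.97, 10.92, 10.70 and 10.62 in Arg1 ko 1 to 4. The groups overlapped only in that the library labelled wild type 3 lay above Arg1 ko 4. The difference was 0.53, standard error 0.19 (limma unadjusted p = 0.0171, adjusted p = 0.522; exact permutation p = 0.0571), the smallest p among the members. Irf7 (ENSMUSG00000025498, chromosome 7, 141262706 to 141266481), which drives the second wave of interferon alpha genes, had 13.59, 13.29, 13.03 and 12.40 in wild type and 13.24, 13.44, 13.35 and 12.89 in Arg1 ko. Its highest and its lowest value were in the wild type, and the difference of 0.15 was smaller than its standard error of 0.23. Irf9, the DNA-binding subunit of the complex, likewise had its highest value in wild type 1 (10.70) and its lowest in wild type 4 (9.96), with 10.32 to 10.60 in Arg1 ko and a difference of 0.16.

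All 5 sensors of foreign nucleic acid had a higher mean in Arg1 ko, by 0.10 to 0.35. Ifih1 (ENSMUSG00000026896, chromosome 2, 62595798 to 62646255), the helicase MDA5 that binds long double-stranded RNA, had 11.28, 11.16, 11.66 and 11.03 in wild type and 11.79, 11.70, 11.51 and 11.44 in Arg1 ko. All wild-type values except that of the library labelled wild type 3 were below all ko values, and the difference was 0.33 (limma unadjusted p = 0.0458, adjusted p = 0.522). Eif2ak2, the kinase PKR that halts translation, showed the same order, with 10.37, 9.97, 10.69 and 9.99 against 10.84, 10.62, 10.45 and 10.51, a difference of 0.35. Ddx58, the sensor RIG-I, differed by 0.29. Zbp1, a sensor of left-handed nucleic acid that can start cell death, was arranged otherwise, with 11.44, 10.22, 10.60 and 9.50 in wild type and 10.18 to 10.84 in Arg1 ko. The ko values of Zbp1 lay inside the wild-type range and its difference of 0.10 was far below its standard error of 0.34. Dhx58, the helicase LGP2 that modulates RIG-I and MDA5, differed by 0.14.

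**Figure D2:**
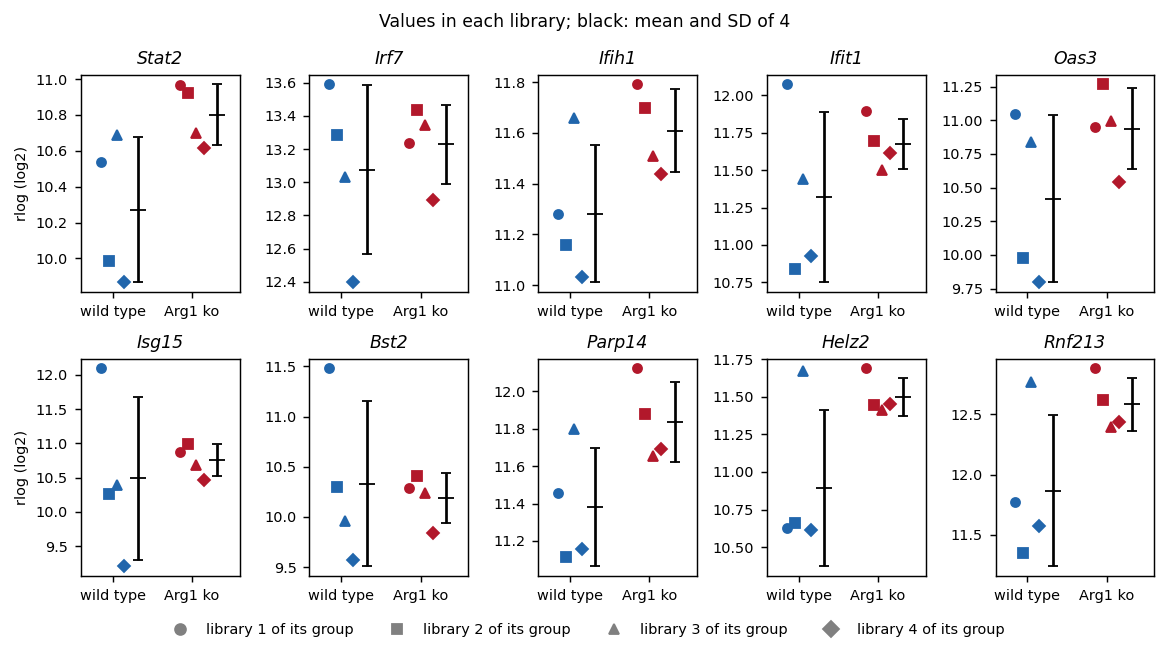
Rlog values (log2, separate axis for each gene) of 10 of the genes in each library, wild type in blue and Arg1 ko in red, with a marker shape for each library number and the mean and SD of 4 in black. Isg15 and Bst2 are highest in wild type 1 (12.09 and 11.48), while in Helz2 the library labelled wild type 3 (11.67) sits among the ko values and the other wild-type libraries lie between 10.61 and 10.66.

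The Ifit genes, a cluster on chromosome 19 whose products bind viral RNA lacking the host cap, moved together across libraries. Ifit1 (ENSMUSG00000034459, 34640871 to 34650009) had 12.07, 10.84, 11.44 and 10.93 in wild type and 11.90, 11.70, 11.50 and 11.62 in Arg1 ko. Wild type 1 was above and the other wild-type libraries were below all ko values. Its difference was 0.36, standard error 0.24. Ifit3 had 10.40, 8.88, 9.48 and 8.95 against 9.50 to 10.01, and its copy Ifit3b 8.50, 7.08, 7.57 and 6.97 against 7.78 to 8.12, with differences of 0.34 and 0.43. Ifit2, at the other end of the cluster, departed from them in the library labelled wild type 3, which was its highest (11.00), and it differed by 0.18.

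The Oas family includes the enzymes that make the messenger that activates RNase L, and some of its members act on RIG-I or on translation. All 5 had a higher mean in Arg1 ko, by 0.07 to 0.53. Oas3, with 11.05, 9.98, 10.84 and 9.80 in wild type and 10.95, 11.27, 11.00 and 10.54 in Arg1 ko, differed by 0.52, standard error 0.28. Oasl2 had 12.51, 11.43, 12.22 and 10.89 against 11.92 to 12.65, which gives a difference of 0.53, standard error 0.32. In Oas3 and Oasl2, wild type 2 and 4 were below every ko value and the other wild-type libraries were among them. Oasl1 was the member with the least spread within Arg1 ko relative to wild type, with an SD of 0.08 against 0.64. Oas1a differed by 0.07 and Oas2 by 0.33. Some members of this family have close copies, but their identity was not measured here, so how safely reads can be split is not known. The Mx pair differed by 0.19 (Mx1) and 0.34 (Mx2).

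Isg15 (ENSMUSG00000035692, chromosome 4, 156199424 to 156200818), the ubiquitin-like modifier, had the widest spread of all members in the wild type, with 12.09, 10.26, 10.39 and 9.21, against 10.88, 10.99, 10.68 and 10.46 in Arg1 ko. Its wild-type range of 2.88 enclosed the whole ko range of 0.53, and the difference was 0.26, standard error 0.48. Usp18, the protease that removes Isg15 and restrains the receptor, followed it with 10.45, 9.15, 9.39 and 8.36 against 9.30 to 9.68, a difference of 0.16. Trim30a, a ubiquitin ligase that dampens inflammatory signalling, differed by 0.35. Trim25, the ligase that activates RIG-I, stood at 12.40 to 12.58 in all 8 libraries, and its difference was below its standard error of 0.09.

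The mono-ADP-ribosyl transferases Parp9 and Parp14 and the ubiquitin ligase Dtx3l, which pairs with Parp9, lie next to each other on chromosome 16. Parp14 (35832874 to 35871544) had 11.46, 11.11, 11.80 and 11.16 in wild type and 12.12, 11.88, 11.65 and 11.69 in Arg1 ko, a difference of 0.46 (limma unadjusted p = 0.0200, adjusted p = 0.522). Dtx3l (35926511 to 35939151) had 10.91, 10.58, 11.33 and 10.98 against 11.59, 11.31, 11.26 and 11.31, a difference of 0.42 (limma unadjusted p = 0.0206, adjusted p = 0.522). In each of these genes the library labelled wild type 3 was inside the ko range and the other wild-type libraries were below it. Parp9 differed by 0.22, and its gene overlaps Dtx3l by 682 bases on the opposite strand, so the values of this pair are not fully separate, since the labels do not say whether counting used the strand. Irf7, Irf9 and Rtp4 also overlap a neighbouring protein-coding gene.

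Rnf213 (ENSMUSG00000070327, chromosome 11, 119393100 to 119487418), a giant ubiquitin ligase that coats intracellular microbes, had the largest difference of the members. Its values were 11.77, 11.35, 12.77 and 11.57 in wild type and 12.88, 12.62, 12.40 and 12.43 in Arg1 ko, which gives a difference of 0.72, standard error 0.27 (limma unadjusted p = 0.0231, adjusted p = 0.522). Helz2, a helicase and nuclear receptor coactivator, followed with 10.63, 10.66, 11.67 and 10.61 against 11.69, 11.45, 11.41 and 11.45, a difference of 0.61 (limma unadjusted p = 0.0199, adjusted p = 0.522). Samd9l, an antiviral and growth-restraining protein, had 11.47, 11.17, 12.02 and 11.08 against 12.08, 11.89, 11.72 and 11.78, a difference of 0.43 (limma unadjusted p = 0.0458, adjusted p = 0.522). In all 3, every wild-type library except that labelled wild type 3 was below every ko value.

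None of the remaining effectors had an unadjusted p under 0.05 (limma). Rsad2 (viperin) and Cmpk2, neighbours on chromosome 12 that together make an antiviral nucleotide, differed by 0.09 and 0.29. Ifi44 had 9.76, 7.86, 9.46 and 7.99 in wild type and 9.52, 9.67, 8.89 and 8.33 in Arg1 ko, and was the member with the widest spread within Arg1 ko (SD 0.61). Its difference was 0.33, standard error 0.45. Rtp4, which restrains the type I response through a kinase of the sensing pathway, and Xaf1, which promotes cell death, differed by 0.13 and 0.08. Bst2 (tetherin), which holds budding virus on the cell, had 11.48, 10.30, 9.96 and 9.58 against 10.29, 10.41, 10.24 and 9.83, a difference of -0.14. Ifi35 (11.29, 10.67, 10.21 and 9.66 against 10.16 to 10.46) and the exonuclease Isg20 (8.43 to 8.75 over all libraries) were also lower on average, with differences of -0.11 and -0.06. Bst2, Ifi35 and Isg20 were on the higher side after the correction for transcript length described below, and none of their differences exceeded its standard error.

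The members were spread widely among the wild-type libraries. The median over the 37 members of the deviation from each gene's own mean was 0.44, -0.48, 0.11 and -0.61 in wild type 1 to 4 and 0.35, 0.25, 0.04 and -0.02 in Arg1 ko 1 to 4. All ko medians lay between those of wild type 4 and wild type 1. Wild type 4 was the lowest of the 8 libraries in 22 members and wild type 2 in 13, against 24.3% and 8.60% of all tested genes. No member was above its own mean in wild type 4, while 35 were in Arg1 ko 1 and 36 in Arg1 ko 2. Wild type 1 was the highest of the 8 in 20 members (26.5% of all tested genes) and Arg1 ko 1 in 11 (8.54%).

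Set against the 4 ko libraries, wild type 4 was below all of them in 34 of the 37 members and wild type 2 in 29, where 36.5% and 37.4% of all tested genes were. Wild type 1 was above all of them in 21 members (38.2% of all tested genes). It was below all of them in 8 (40.9%), namely Stat2, Ifih1, Eif2ak2, Dtx3l, Parp14, Samd9l, Helz2 and Rnf213. The SD was larger in wild type than in Arg1 ko in 36 of the 37 members, Trim25 being the exception, with a median of 0.56 against 0.21. Over all tested genes it was larger in 90.9%, with a median of 0.26 against 0.10, so a wider wild type was common in the table. Without wild type 4 the median difference was 0.11 and 24 members remained on the higher side, and without wild type 1 it was 0.44 with 36. Without wild type 1, 20 members were higher at an unadjusted p under 0.05 (4.82% of all tested genes). Without wild type 2, 0 were (2.39%), without wild type 4, 2 (4.62%), and without Arg1 ko 1, 1 (2.51%). Without wild type 1 and 2 together, a fit chosen after the data had been seen, 14 were (6.28%).

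**Figure D3:**
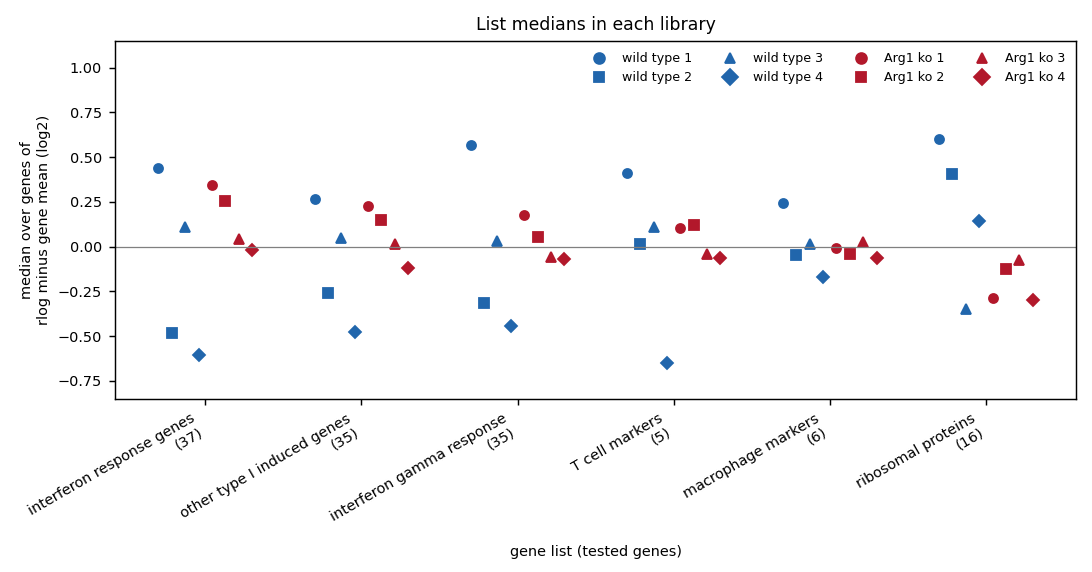
Median over the tested genes of each list of the deviation from the gene's mean of 8 libraries (log2), with wild type in blue, Arg1 ko in red and a marker shape for each library number. For the 37 interferon response genes the wild-type medians run from -0.61 to 0.44 and the ko medians from -0.02 to 0.35, and T cell markers also have their extremes in wild type 4 (-0.65) and wild type 1 (0.41).

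The list medians of T cell and of macrophage markers also had their extremes in wild type 1 and 4, and those of other immune cells did not all do so. Single markers differed within these lists. Cd3e, Trac and C1qa had their highest value in wild type 1 and their lowest in wild type 4. Cd4 and Cd8a were highest in Arg1 ko 1, Csf1r was highest in the library labelled wild type 3, and C1qb and Cd14 were lowest in Arg1 ko 4. The median deviation of 5 T cell markers was 0.41, 0.01, 0.11 and -0.65 in wild type 1 to 4 and -0.06 to 0.12 in Arg1 ko, and all 5 were measured in all libraries. On the log2 scale the summed level of the T cell markers was 9.17 to 9.98 in wild type and 9.70 to 9.97 in Arg1 ko. That of 6 macrophage and monocyte markers was 12.52 (wild type 4) to 13.11 (wild type 1) in wild type and 12.64 to 12.72 in Arg1 ko. For 4 markers of plasmacytoid dendritic cells, which are major producers of interferon alpha, it was 10.43 to 10.84 and 10.50 to 10.72, most of it from Tcf4, which other cells also express. For 5 epithelial markers it was 17.27 to 17.64 and 17.30 to 17.54. B and plasma cell markers had a median deviation of 0.47, -0.39, 1.09 and -0.62 in wild type 1 to 4, highest in the library labelled wild type 3. Neutrophil markers had 0.19, 1.28, -0.40 and 0.23, highest in wild type 2, where the interferon response genes were low. Those of plasmacytoid dendritic cells had -0.05, -0.20, 0.23 and -0.21. The summed level of 5 fibroblast markers was 14.35 to 14.68 in wild type and 14.72 to 14.83 in Arg1 ko, without overlap, but the markers differed among themselves. In 3 of the 5 all ko values lay above all wild-type values, as they did in 2.36% of all tested genes. Col3a1 (difference 0.70) and Col1a2 (0.57) were among them and Col1a1 was the third, named after its values were seen. Dcn differed by -0.11 and Pdgfra by 0.06, and 0 of the 5 passed the limma test over all genes. After the correction for transcript length given below, 3 of the 5 were on the higher side. The summed level of red blood cell markers was 12.29 to 14.39 in wild type and 12.25 to 13.01 in Arg1 ko. Tested neutrophil and red blood cell markers have short transcripts, with median lengths of 730 and 699 bases. Their median differences were -0.65 and -0.88 as deposited and -0.51 and -0.73 after the length correction. The part of these cells in the interferon values was not tested.

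The difference between genotypes also varied with transcript length. The 8 members with a longest transcript under 2 kb had a median difference of 0.10, the 17 from 2 to under 4 kb 0.29, and the 12 of 4 kb or more 0.42. All 7 members with an unadjusted p under 0.05 were among those 12, and 8.16% of all tested genes of that length were higher at that p, against 3.76% of those from 2 to under 4 kb and 1.42% of those under 2 kb. Over all tested genes the medians in these length classes were -0.14, -0.01 and 0.11, so the members had the same order and lay above each class. Across the 37 members, which share the same 8 libraries, the difference and log2 of the length had a Pearson r of 0.64 and a Spearman rho of 0.51, and over 16361 tested genes 0.39 and 0.46. These are correlations across genes, which are not independent replicates, and are given as a description.

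Among single libraries the relation to length was closest in wild type 1, where the deviation of the 37 members and log2 of the length had a Pearson r of -0.81, and in the library labelled wild type 3, where it was 0.79. In wild type 1 the median deviation was 0.88 for members under 2 kb and -0.11 for those of 4 kb or more, and in the library labelled wild type 3 it was -0.15 and 0.20. In wild type 4 the short and the long members were low alike, at -0.71 and -0.57. Over all tested genes, wild type 1 had 0.31 and -0.26 in the same classes. Ribosomal protein genes, which have short transcripts, had a median deviation of 0.60 and 0.40 in wild type 1 and 2 and -0.35 to 0.14 in the other libraries. A smooth dependence on length was also subtracted from each library, a step chosen after the data had been seen. After it, 36 of the 37 members had a higher mean in Arg1 ko, as did 7932 of 16361 tested genes. The median was 0.28 for the members against -0.01 for all tested genes. Then 4 members had an unadjusted p under 0.05, Stat2, Dtx3l, Helz2 and Rnf213, against 4.88% of all tested genes on the higher side, and none passed the limma test over all genes.

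**Figure D4:**
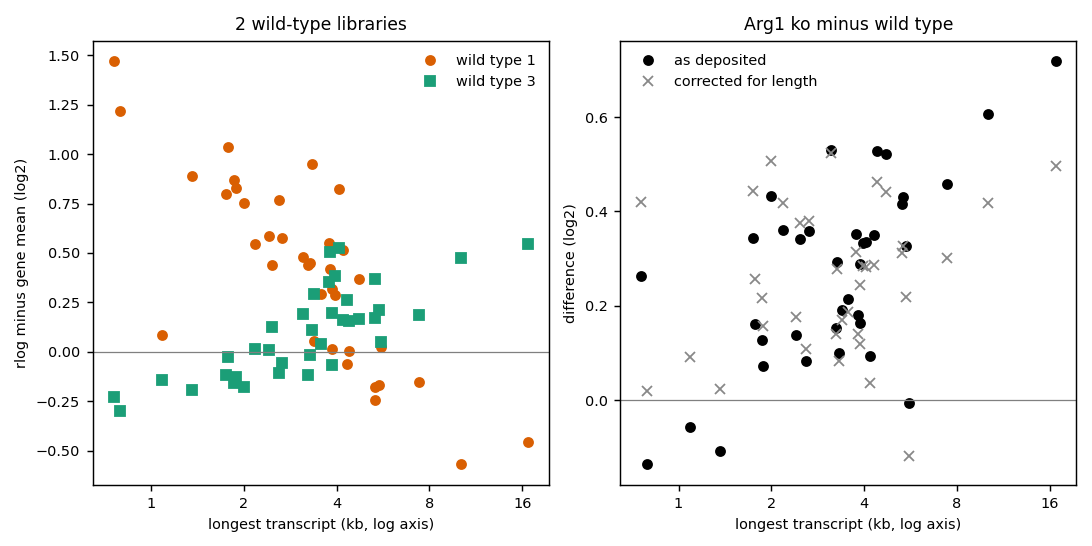
Left, deviation from the gene's mean of 8 libraries (log2) against the longest transcript (kb, log axis) for the 37 genes in wild type 1 (circles) and the library labelled wild type 3 (squares). Right, Arg1 ko minus wild type as deposited (dots) and after correction for length (crosses). Wild type 1 has 1.47 for Isg15, the shortest, and -0.46 for Rnf213, the longest, while the library labelled wild type 3 has -0.23 and 0.55. The lowest points are Helz2 (-0.57) in wild type 1 and Bst2 (-0.30) in the library labelled wild type 3.

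**Figure D5:**
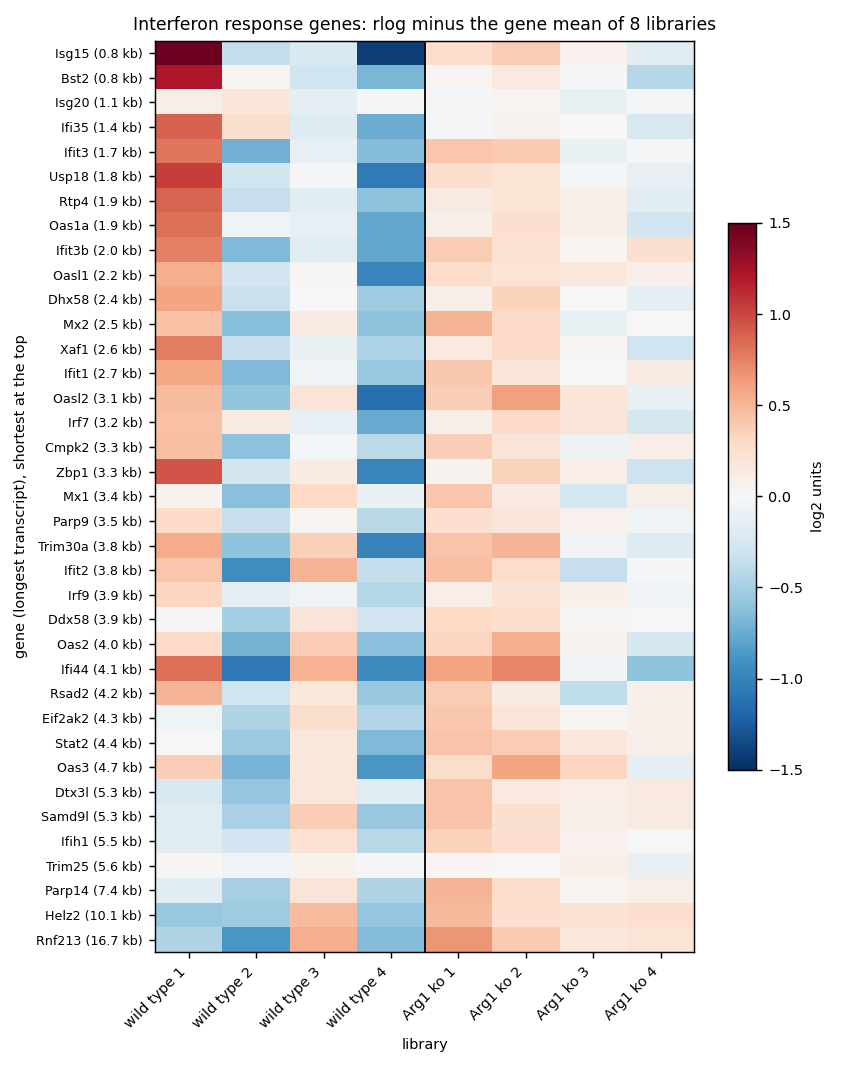
Deviation of each of the 37 genes from its mean of 8 libraries (colour, log2 units, red above and blue below), with genes in rows from the shortest longest transcript at the top to the longest at the bottom and libraries in columns. Wild type 4 is blue or near white in all rows, wild type 1 is red in the upper rows and blue in the lowest, and Arg1 ko 1 and 2 are red or near white nearly throughout.

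The pathway upstream of these genes was measured with lists of its own. Of 20 type I and type III interferon genes none reached the filter. All 17 type I genes other than Ifnb1 were listed at 0 in all libraries, and Ifnb1, Ifnl2 and Ifnl3 stayed below an rlog of 0. Tyk2, a receptor kinase, averaged 9.79 ± 0.03 (SD, n = 4) in Arg1 ko against 9.49 ± 0.21 (SD, n = 4). The receptor chains Ifnar1 and Ifnlr1 differed by 0.11 and -0.17, and neither they nor Tyk2 passed the limma test over all genes.

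Of 14 adaptors and kinases of nucleic acid sensing, 9 were on the higher side, against 51.2% of all tested genes. Their median was 0.16, or 0.10 after the correction for transcript length, and 0 passed the test, which 0% of all tested genes passed. Cgas, the sensor of cytosolic DNA, led by p with 6.92 ± 0.12 (SD, n = 4) in Arg1 ko against 6.54 ± 0.36 (SD, n = 4). Among 8 tested negative regulators, 6 were on the higher side and 0 passed, with a median of 0.05, or 0.02 after that correction. Socs3, an inhibitor of receptor kinases, had all 4 ko values below all wild-type values, as 1.67% of all tested genes did. It averaged 8.72 ± 0.12 (SD, n = 4) in Arg1 ko against 9.02 ± 0.16 (SD, n = 4). Adar, which edits double-stranded RNA, averaged 11.18 ± 0.14 (SD, n = 4) in Arg1 ko against 10.87 ± 0.23 (SD, n = 4).

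Genes outside the 37 that interferons also induce were arranged in a like way. Of 35 other type I induced genes, 27 had a higher mean in Arg1 ko, against 51.2% of all tested genes. Their median was 0.18, or 0.19 after the correction for transcript length, and 0 passed the test, which 0% of all tested genes passed. Ddx60, an RNA helicase, had 11.52, 10.80, 11.76 and 10.46 in wild type and 12.03, 12.10, 11.70 and 11.53 in Arg1 ko, and Slfn9, Pml and Znfx1 had the next smallest p. The library medians of this list were 0.27, -0.26, 0.05 and -0.48 in wild type and -0.12 to 0.23 in Arg1 ko. Of 35 interferon gamma response genes 23 were on the higher side, beside the same 51.2%, with a median of 0.08, or 0.09 after that correction, and 0 past the test. Their library medians were 0.57, -0.32, 0.03 and -0.44 in wild type and -0.07 to 0.18 in Arg1 ko. Ifng itself did not reach the filter. Whether the type I genes differed from the interferon gamma genes in their response to genotype was not tested.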

How the data were processed

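Per the labels' protocols, a stranded mRNA kit from Illumina and 1000 ng of RNA per sample were used. The submitters' processing notes name, with no roles, STAR 2.5.2b, BWA 0.7.14-r1136, featureCounts, Subread 1.5.3, DESeq2 1.16.1 and the build GRCm38; options and annotation release were not given in the sources used here. Values were used as deposited by the authors, on the regularised log2 scale. They hold no counts, so depth is unknown, and the shrinkage understates differences between groups where a gene is low. Symbols, coordinates (1-based, GRCm38) and the longest transcript of each gene came from GENCODE vM21, with 53274 of 53465 IDs matched.

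Groups are the genotypes in the labels. Numbers 1 to 4 only name the libraries and pair nothing. The series' design counts 8 mice, and no batch is named. Genes with a mean of 3 or more were fitted together with limma 3.58.1 in R 4.3.3 (moderated variance following the mean, two-sided, Benjamini-Hochberg adjustment over 16380 genes at 0.05). The fit was checked on simulated data in which genes were independent and both groups had the same SD. That check does not cover the wider wild type or the shifts that many genes of a library share in these data. The list of receptors and kinases is not reported here as a whole. Members and lists are described by counts and medians, with no set test. The members and lists were chosen with earlier results of these data known. All 37 members and Arg1 are named. Of other pathway lists up to 4 genes of smallest p could be named, and of cell type lists those of highest mean. Of the listed genes, Mnda was not matched and Trex1 is listed at 0. Alternatives were other filters, scalings and priors, leaving out each library, and, chosen after seeing the data, a spline of transcript length and a fit without wild type 1 and 2.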

Additional observations from a re-analysis of the deposited data

Results flagged for a closer look

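Within each group of 4, a library was marked when its gap to the nearest other, as a share of the group's range, passed Dixon's 95% limit, which chance passes in about 1 of 20 groups. Of 76 groups looked at (37 members and Arg1, each in wild type and Arg1 ko), 4 were marked. Helz2 stood at 11.67 in the library labelled wild type 3, with the other wild-type libraries at 10.61 to 10.66. Arg1 itself stood lowest there among the wild type, at 5.02. In Arg1 ko 1, Dtx3l (11.59) and Helz2 (11.69) stood above the other ko libraries.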

How the results depend on the processing

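With no filter, a filter at 5, aligned medians, quantile normalisation, no mean trend and robust moderation, limma called no gene and no member, and 33 or 34 members were on the higher side; of single members only Trim25 turned sign there (0.063 after quantile normalisation). Leaving out each library gave 0 to 1005 called genes, 0 to 5 called members, 0 to 20 members at an unadjusted p under 0.05 (7 with all libraries), 24 to 36 on the higher side, a median of 0.11 to 0.44, and for Arg1 -0.51 to -0.31, the former past the test without the library labelled wild type 3 (limma adjusted p = 0.0418), an omission that enlarges it by construction. Members that turned sign there ranged from -0.39 to 0.25 (Bst2), -0.37 to 0.17 (Ifi35), -0.10 to 0.38 (Ifit2), -0.061 to 0.35 (Xaf1), -0.019 to 0.36 (Dhx58), -0.21 to 0.43 (Zbp1), -0.075 to 0.32 (Irf7), -0.17 to 0.36 (Oas1a), -0.16 to 0.80 (Isg15), -0.16 to 0.53 (Usp18), -0.080 to 0.28 (Rsad2), -0.057 to 0.44 (Rtp4) and -0.032 to 0.030 (Trim25). Chosen after seeing the data, the length correction left 4 members at an unadjusted p under 0.05 and turned Isg20 (0.092), Bst2 (0.020) and Ifi35 (0.024); the fit without wild type 1 and 2 gave 14 and turned Isg20 (0.049), Bst2 (0.42) and Ifi35 (0.41). The cause of these shifts was not tested. No paired analysis was possible because the labels give no replicate numbers that the groups share.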
